A study of Rattus with 9 samples.

Results

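The respiratory chain genes of rat liver were taken as the protein-coding genes whose symbols match those of the subunits of complexes I to V. Of the 20236 genes in the table, 17257 were protein-coding and 104 of these were members. Of the members, 13 were encoded by mitochondrial DNA and 91 by nuclear DNA. The 91 nuclear genes carried 88 symbols, because Cox6b1, Ndufv3 and Uqcrb each stood on 2 gene identifiers. The same symbol pattern also takes in 7 complex I assembly factors, named Ndufaf, and the genes Atp5s and Atp5sl, whose current symbols are Dmac2l and Dmac2 and which are not subunits of the synthase. RNA selected for poly(A) tails was sequenced in 9 liver libraries. The rats were of the Sprague-Dawley stock, which is outbred. The libraries formed a pomegranate-high, a model and a normal control group of 3 each, sampled after 8 weeks of administration. The series concerns pomegranate as a treatment of hyperlipidemia, a raised level of blood lipids. The labels give no further treatment, genotype, age or sex for any group, and neither the way the model was made nor the pomegranate dose. Nothing in them states that the libraries are from different animals, so every p-value below measures library-to-library spread, which may be technical.

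The respiratory chain passes electrons from NADH and succinate through complexes I to IV to oxygen and pumps protons across the inner mitochondrial membrane, and complex V, the ATP synthase, uses the proton gradient to make ATP. Complexes I, III, IV and V are mosaics of subunits made in the mitochondrion and subunits made in the cytosol and imported, while complex II has nuclear subunits only. Mammalian mitochondrial DNA is transcribed from both strands into long precursors, which are cut at the transfer RNAs into the mature messenger and ribosomal RNAs. Hepatocytes are rich in mitochondria and use the chain to oxidise fuels and to supply ATP for gluconeogenesis and urea synthesis.

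Depth ranged from 13678658 to 17966670 reads per library, as read from the steps of the deposited FPKM values (a read count relative to both the length of the gene and the total of the library). Where a gene has no read, up to 3 reads remain possible, which for a length of 1 kb is 0.167 to 0.219 FPKM by counting error alone. Of the 104 members, 96 reached 1 FPKM in 3 or more libraries and were tested, 13 mitochondrially encoded and 83 nuclear. Pomegranate-high replicates 1 and 2 and model replicate 1 stood apart from the rest over all genes. Their median correlation with the other libraries was 0.922 to 0.931, against 0.963 to 0.97 for the other 6. Hepatocyte markers were high throughout, with summed levels of 49632 to 64882 FPKM in pomegranate-high, 64439.6 to 72845 FPKM in model and 66518 to 76509.6 FPKM in control libraries. In bulk liver, fewer cells of a type and less RNA per cell cannot be told apart.

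Summed over genes, the mitochondrially encoded transcripts exceeded the nuclear ones in every library. Single genes did not all do so, since Mt-nd4, Mt-nd4l and Mt-atp8 averaged 348, 464 and 4.8 FPKM, below the nuclear Atp5b at 649 FPKM. The sum of the mitochondrially encoded transcripts varied more between libraries than that of the nuclear members. Their summed level was 95837, 110894 and 39858 FPKM in pomegranate-high replicates 1 to 3, 134915, 61105 and 47581 FPKM in model replicates 1 to 3, and 61266, 39588 and 40934 FPKM in normal control replicates 1 to 3. Pomegranate-high replicates 1 and 2 and model replicate 1 lay above all controls, model replicate 2 was just below the highest control, and model replicate 3 and pomegranate-high replicate 3 lay within the control range. The 13 genes took 9.47%, 11.1% and 4.18% of reads in pomegranate-high, 13.8%, 6.31% and 4.94% in model and 6.28%, 4.14% and 4.13% in control libraries. The group means were 82196 ± 37431 FPKM in pomegranate-high, 81200.3 ± 47007 FPKM in model and 47263 ± 12146 FPKM in control libraries (SD, n = 3 libraries each), and the groups overlapped.

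The nuclear members moved differently. Their summed level was 14188, 8933 and 8756 FPKM in pomegranate-high replicates 1 to 3, 5637, 10896 and 9862 FPKM in model replicates 1 to 3, and 8966, 9954 and 11301 FPKM in controls. Pomegranate-high replicate 1 had the highest sum of the 9 libraries and model replicate 1 the lowest, so the 2 libraries that were both high in mitochondrially encoded transcripts lay at opposite ends for the nuclear ones. The nuclear sum averaged 10626 ± 3086 FPKM in pomegranate-high, 8798 ± 2786 FPKM in model and 10074 ± 1172 FPKM in control libraries (SD, n = 3 libraries each).

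The ratio of the summed levels, mitochondrially encoded over nuclear, was 6.75, 12.4 and 4.55 in pomegranate-high libraries, 23.9, 5.61 and 4.82 in model libraries, and 6.83, 3.98 and 3.62 in control libraries. Model replicate 1 had the highest ratio and pomegranate-high replicate 2 the next. The other 4 pomegranate-high and model libraries, among them pomegranate-high replicate 1, fell within the control range, since in that replicate both classes were high. The ratio averaged 7.91 ± 4.06 in pomegranate-high, 11.5 ± 10.8 in model and 4.81 ± 1.76 in control libraries (SD, n = 3 libraries each). Taking the most abundant gene out of each class left model replicate 1 highest at 20.7 and pomegranate-high replicate 2 next at 10.3.

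**Figure D1:**
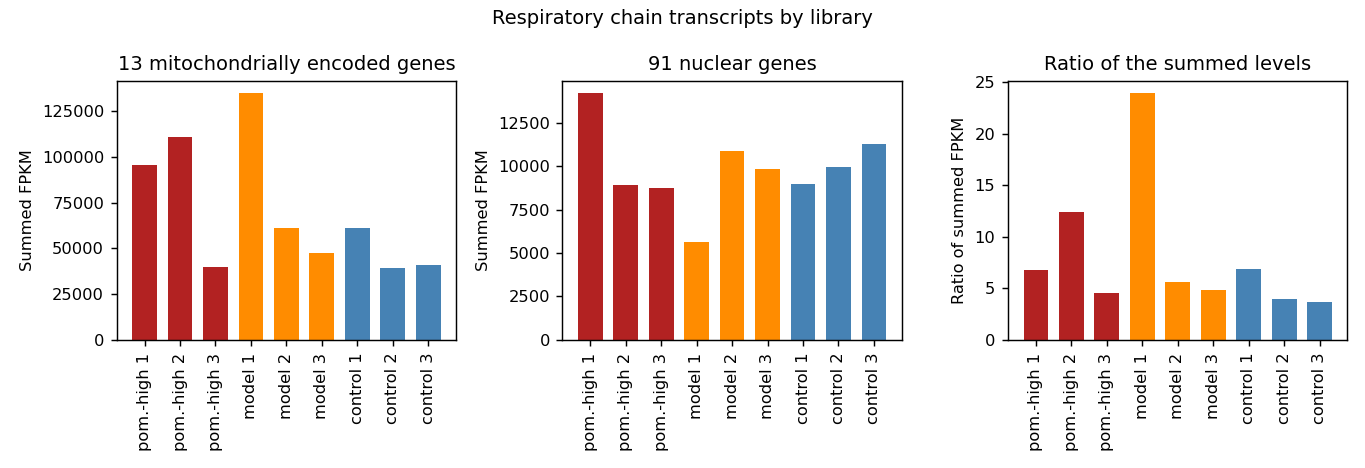
Bars give the summed FPKM of the 13 mitochondrially encoded genes (left), of the 91 nuclear genes (middle) and the ratio of these sums (right) in each of 9 libraries, coloured by group. Model replicate 1 has the highest mitochondrially encoded sum (134915 FPKM), the lowest nuclear sum (5637 FPKM) and the highest ratio (23.9).

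Among the mitochondrially encoded genes, the 3 catalytic subunits of complex IV were abundant in all libraries. Mt-co1, which holds the oxygen-reducing centre (MT:5323-6867 in build Rnor_6.0, plus strand), had the highest mean level of the chain. It reached 19923, 23773 and 10219 FPKM in pomegranate-high, 27398, 14660.3 and 11301 FPKM in model and 14055, 10186 and 9211 FPKM in control livers. In pomegranate-high replicates 1 and 2 and model replicates 1 and 2 it exceeded the highest control, and the groups overlapped. Mt-co2, the subunit that receives electrons from cytochrome c, had 13200.3, 13683 and 3985 FPKM in pomegranate-high, 11548, 6485 and 4827 FPKM in model and 6383, 4096 and 4633 FPKM in control livers. Mt-cox3 had 14392, 16935 and 5522 FPKM in pomegranate-high, 10955, 9166 and 7049 FPKM in model and 9213, 5902 and 7372 FPKM in control livers. For both Mt-co2 and Mt-cox3 the highest library was pomegranate-high replicate 2, not model replicate 1.

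The complex I subunits of mitochondrial DNA, which form the proton-pumping membrane arm, spanned a wide range of levels. Mt-nd1 had 13042, 13275 and 5516 FPKM in pomegranate-high, 20092, 8199.9 and 6455 FPKM in model and 7307, 5253 and 4180.0 FPKM in control livers. Mt-nd2 had 8134, 10618 and 4112 FPKM in pomegranate-high, 18861, 5916 and 4819.9 FPKM in model and 6139, 3542 and 3611 FPKM in control livers. Model replicate 1 was the highest library for both, and every group reached into the control range. Mt-nd5 had 867, 1891 and 649 FPKM in pomegranate-high, 3468, 844 and 817 FPKM in model and 1249, 575 and 635 FPKM in control livers. Mt-nd4 had 432, 329 and 289 FPKM in pomegranate-high, 944, 306 and 116 FPKM in model and 363, 259 and 97.3 FPKM in control livers. Both genes peaked in model replicate 1 and overlapped between groups.

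Mt-nd3 broke this order. It had 2166, 1868 and 643 FPKM in pomegranate-high, 934, 975 and 693 FPKM in model and 1356, 566 and 817 FPKM in control livers, so that model replicate 1 lay inside the control range for it. Mt-nd4l, whose annotated gene shares 7 bp with Mt-nd4 on the same strand, had 158, 795 and 256 FPKM in pomegranate-high, 1049.8, 368 and 391 FPKM in model and 567, 288 and 306 FPKM in control livers. Its lowest library was pomegranate-high replicate 1, where most other mitochondrially encoded genes were above the controls. Mt-nd6, the one member on the minus strand, had 1464, 1616 and 441 FPKM in pomegranate-high, 3281, 591 and 419.6 FPKM in model and 842, 298 and 299.7 FPKM in control livers. The Mt-nd6 gene overlaps Mt-nd5 by 23 bp on the other strand, and reads of those bases may be shared, since strand-specific counting is not stated.

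Mt-cyb, cytochrome b and the haem-bearing subunit of complex III, had 8557, 10307 and 3688 FPKM in pomegranate-high, 12803, 6146 and 5291 FPKM in model and 6185, 3907 and 4007 FPKM in control livers. Mt-atp6, the proton-channel subunit of ATP synthase, had 13494, 15797 and 4534 FPKM in pomegranate-high, 23577, 7444 and 5397 FPKM in model and 7600.3, 4710.1 and 5766 FPKM in control livers. In both genes model replicate 1 was highest, pomegranate-high replicate 2 next and pomegranate-high replicate 3 lowest of the 9. Mt-atp8, the other synthase subunit of mitochondrial DNA, held only 1 to 26 reads per library. Its level was 5.99, 6.27 and 5.12 FPKM in pomegranate-high, 3.58, 3 and 5.17 FPKM in model and 7.88, 5.9 and 0.273 FPKM in control livers. The gene is 204 bp long and shares 43 bp with Mt-atp6; the assignment of reads from that stretch is not stated, and its part in the low value was not tested.

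Relative to the mean of the 3 controls, the 12 mitochondrially encoded genes other than Mt-atp8 were not raised evenly. The median ratio was 1.88 in pomegranate-high replicate 1, 2.28 in replicate 2 and 0.791 in replicate 3, and 3.16, 1.26 and 0.978 in model replicates 1 to 3. In model replicate 1 the ratio ran from 1.02 for Mt-nd3 to 6.84 for Mt-nd6. Pomegranate-high replicate 2 was more even, from 1.37 for Mt-nd4 to 3.37 for Mt-nd6, while pomegranate-high replicate 1 ran from 0.409 for Mt-nd4l to 3.05 for Mt-nd6. Mt-nd6 thus had the highest ratio in all 3 libraries that were high in mitochondrial transcripts. The neighbouring genes Mt-cox3 and Mt-nd3 had the lowest ratios in model replicate 1, at 1.46 and 1.02, with Mt-atp6 just before them at 3.91.

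The ribosomal RNA rows of the mitochondrial genome, which are not members, differed more. They had 1107, 2311 and 258 FPKM in pomegranate-high, 5633, 698 and 332 FPKM in model and 767, 328 and 292 FPKM in control livers, summed over the 2 rows. In model replicate 1 they stood at 14.3 and 9.7 times the control mean. Ribosomal RNAs of mitochondria carry short tails at most, so poly(A) selection samples them poorly; their part in the difference between the messenger RNAs was not tested.

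**Figure D2:**
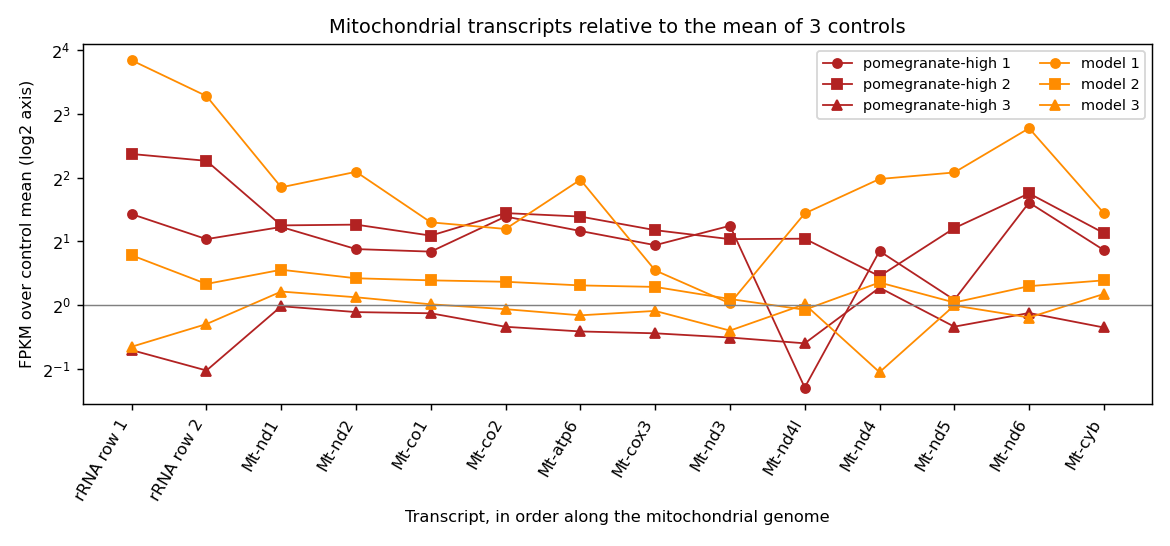
Points give FPKM over the mean of the 3 controls (log2 axis) for the mitochondrial transcripts other than Mt-atp8 and the transfer RNA row, in their order along the mitochondrial genome, for the 6 pomegranate-high and model libraries. Model replicate 1 reaches 14.3 for the first ribosomal RNA row and 1.02 for Mt-nd3, and Mt-nd6 is the highest messenger RNA in that library (6.84) and in pomegranate-high replicates 1 and 2 (3.05 and 3.37).

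The nuclear part of complex I comprised 7 core subunits, 30 accessory subunits and 7 assembly factors. Core subunits carry the flavin and iron-sulfur centres of the NADH-oxidising arm. The member with the highest mean over 9 libraries was Ndufa6, an accessory subunit, at 185 FPKM. It had 309, 162 and 156 FPKM in pomegranate-high, 119, 211 and 181 FPKM in model and 160.2, 174 and 196 FPKM in control livers. Pomegranate-high replicate 1 was the highest library and model replicate 1 the lowest. The 7 assembly factors were at low levels, with means of 2.44 FPKM for Ndufaf7 to 10.1 FPKM for Ndufaf3.

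Complex II oxidises succinate and also belongs to the citric acid cycle. Means of its 4 subunits ran from 106 FPKM for Sdhd, a membrane anchor, to 143 FPKM for Sdhb, the iron-sulfur subunit. Sdhb had 189, 133 and 131 FPKM in pomegranate-high, 113, 150.1 and 155 FPKM in model and 139.6, 143 and 137 FPKM in control livers. Sdhd had 126, 102 and 96 FPKM in pomegranate-high, 90.5, 114 and 108 FPKM in model and 109, 108 and 95.4 FPKM in control livers. The highest library exceeded the lowest by 1.66 times for Sdhb and by 1.39 times for Sdhd.

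In complex III, which passes electrons from ubiquinol to cytochrome c, the highest mean was that of Uqcr11, a small subunit, at 171 FPKM. Uqcr11 had 284, 125 and 165 FPKM in pomegranate-high, 55.1, 227 and 171 FPKM in model and 129.7, 189.5 and 189 FPKM in control livers. The lowest mean was that of the Uqcrb row ENSRNOG00000024967 on chromosome 7, at 23.5 FPKM. It had 51, 20.9 and 22.3 FPKM in pomegranate-high, 14.4, 25 and 20.8 FPKM in model and 17.8, 20.4 and 19.1 FPKM in control livers. The other Uqcrb row, ENSRNOG00000032204, averaged 113 FPKM and lies on chromosome 1 (94718402 to 94718876 in Rnor_6.0), a span of 475 bp that equals its gene length and so leaves no room for an intron. Their sequences were not compared. Where rows of 1 symbol share sequence, counting can split reads between them, so the level of each is uncertain.

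Complex IV genes come in isoforms, and the liver libraries held the widespread ones. Cox4i1, a subunit that binds the catalytic core, had 887, 553 and 579.8 FPKM in pomegranate-high, 266, 714 and 620.1 FPKM in model and 501, 578 and 925 FPKM in control livers. Its isoform Cox4i2, known from lung, stayed between 0.175 and 0.808 FPKM. Cox6a1 had 906, 381 and 598 FPKM in pomegranate-high, 99.7, 708 and 704 FPKM in model and 486, 715 and 450.1 FPKM in control livers. Model replicate 1 was thus far below the other 8 libraries for Cox6a1, whose highest value exceeded its lowest by 9.09 times. The muscle isoform Cox6a2 ranged from 0 to 0.521 FPKM.

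The Cox6b1 row on chromosome 1 had 277, 188 and 136 FPKM in pomegranate-high, 91.8, 180.3 and 163 FPKM in model and 151, 152 and 188 FPKM in control livers. A further Cox6b1 row, ENSRNOG00000034161 on chromosome 2 (211337271 to 211337531), spans 261 bp with no room for an intron, and it ranged from 14.3 FPKM in model replicate 1 to 63.2 FPKM in pomegranate-high replicate 1. The testis isoform Cox6b2 stayed at 0.128 to 0.921 FPKM. Cox8a had 362, 187 and 181 FPKM in pomegranate-high, 81.8, 238 and 221 FPKM in model and 179, 230.0 and 279.5 FPKM in control livers. Cox8b, the muscle form and the complex IV member with the lowest mean, ranged from 0 to 0.755 FPKM, on 0 to 4 reads per library. Cox7a2 had 76.3, 35.7 and 25.4 FPKM in pomegranate-high, 32.4, 46.2 and 39.7 FPKM in model and 36.4, 33.9 and 65.8 FPKM in control livers. Cox7b had 76.5, 41.9 and 25.7 FPKM in pomegranate-high, 42.1, 37.1 and 28.2 FPKM in model and 28.2, 29.1 and 34.8 FPKM in control livers. In Cox7b, unlike most subunits of complex IV, model replicate 1 was above all 3 controls. Of the 3 striated muscle markers, Ckm was at 0 in all 9 libraries, and their sum was at most 2.15 FPKM.

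**Figure D3:**
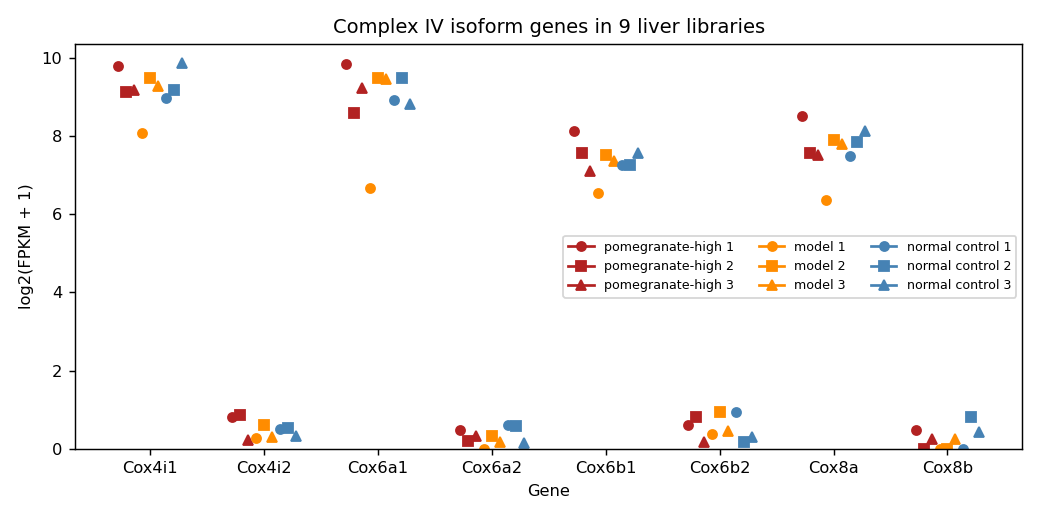
Points give log2(FPKM + 1) of complex IV isoform genes in each of 9 libraries, coloured by group and shaped by replicate, with the more abundant of the 2 Cox6b1 rows shown. Cox4i1, Cox6a1, Cox6b1 and Cox8a lie far above Cox4i2, Cox6a2, Cox6b2 and Cox8b in every library, and model replicate 1 is the lowest library for each of the 4 abundant genes.

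In ATP synthase the highest mean of the nuclear members was that of Atp5b, the catalytic beta subunit, at 649 FPKM. Atp5b had 685, 461 and 659.6 FPKM in pomegranate-high, 433, 707 and 725 FPKM in model and 647, 698 and 822 FPKM in control livers. Pomegranate-high replicate 2 and model replicate 1 were lowest. The 3 genes of the proton-carrying c-ring encode the same mature protein. Atp5g1 had 351, 188 and 195 FPKM in pomegranate-high, 92.5, 272 and 202 FPKM in model and 202, 221 and 264 FPKM in control livers. Atp5g2 had 306, 201 and 227 FPKM in pomegranate-high, 108, 252 and 229 FPKM in model and 192, 236 and 304 FPKM in control livers. Atp5g3 had 443, 249.9 and 259 FPKM in pomegranate-high, 153, 260.0 and 257 FPKM in model and 246, 256 and 322 FPKM in control livers. All 3 were of like abundance and had their highest value in pomegranate-high replicate 1 and their lowest in model replicate 1.

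Of the members, 8 did not reach the minimum level and were not tested. They were Ndufa1, Ndufa13, Ndufa4l2, Cox4i2, Cox6a2, Cox6b2, Cox8b and Atp5f1. For some of these the low value belongs to the row, not clearly to the gene. The Ndufa13 row on chromosome 7 had 0 to 1 FPKM, while a row on chromosome 16 with the same annotated product, LOC100911483, had 360.3, 201 and 175 FPKM in pomegranate-high, 58.5, 239 and 189 FPKM in model and 164, 217 and 229 FPKM in control livers. Ndufa1, a small subunit needed for complex I assembly, had the lowest mean of complex I at 0.0977 FPKM. A row with its annotated product, LOC108348144, ranged from 0.283 to 1.72 FPKM. Atp5f1, the stator subunit b, had the lowest mean of complex V. It had 0.504, 0.379 and 0.863 FPKM in pomegranate-high, 1.7, 0.977 and 1.45 FPKM in model and 0.51, 0.758 and 0.351 FPKM in control livers, on 11 to 51 reads per library. The 3 model libraries lay above the other 6, at a level below the minimum for testing. Of all genes tested, which leave out Atp5f1, 3.97% lay wholly above the controls in the model group. The share that lay above the pomegranate-high libraries as well was not counted. A row with the annotated product of Atp5f1, LOC100911417, ranged from 0.448 to 0.889 FPKM.

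In 2 libraries most nuclear members lay to one side of the controls. On the log2(FPKM + 1) scale their median deviation from the control mean was 0.54, −0.07 and −0.17 in pomegranate-high replicates 1 to 3 and −0.57, 0.13 and −0.03 in model replicates 1 to 3. Over all genes tested the corresponding medians were −0.01, 0.08 and 0.15 in pomegranate-high and −0.18, 0.08 and −0.00 in model libraries. In pomegranate-high replicate 1, 64 of the 83 tested nuclear members lay above all 3 controls, where 32.5% of all genes tested did. In model replicate 1, 67 of 83 lay below all 3 controls, where 47.7% of all genes tested did. Pomegranate-high replicate 1 was the highest of the 9 libraries for 61 of the 83 and model replicate 1 the lowest for 57. The like shares over all genes were not counted. Pomegranate-high replicate 3 was below all controls for 39 of 83, where 11.5% of all genes tested were, and above them for 5, where 41% were. The members went both ways in pomegranate-high replicate 2, with 21 above and 28 below all controls, beside 40.3% and 30% of all genes. They also did in model replicate 3, with 11 above and 16 below, beside 21.5% and 21.6%. In model replicate 2, 35 lay above and 6 below, beside 30.4% and 16.6%.

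The exceptions in these libraries were few. In pomegranate-high replicate 1, the 6 members below all controls were Sdha, Uqcrc1, Uqcrc2, Ndufs1, Atp5a1 and the Ndufv3 row ENSRNOG00000027593, the first 5 of which are among the large catalytic or core proteins of their complexes. That Ndufv3 row spans 327 bp with no room for an intron, and held 4 reads in this library and 7, 9 and 7 in the controls. The other Ndufv3 row was at 114 FPKM there, above all controls. In model replicate 1, the 5 members above all controls were Ndufa4, Ndufaf1, Ndufaf7, Atp5c1 and Cox7b. The complexes differed in extent: in model replicate 1 the median deviation was −0.39 in complex I, −0.38 in complex II, −0.62 in complex III, −1.15 in complex IV and −0.76 in complex V. In pomegranate-high replicate 1 it was 0.55, 0.18, 0.54, 0.75 and 0.48 for complexes I to V. Complex IV thus had the largest and complex II the smallest of these medians in both libraries, before any account of gene length.

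**Figure D4:**
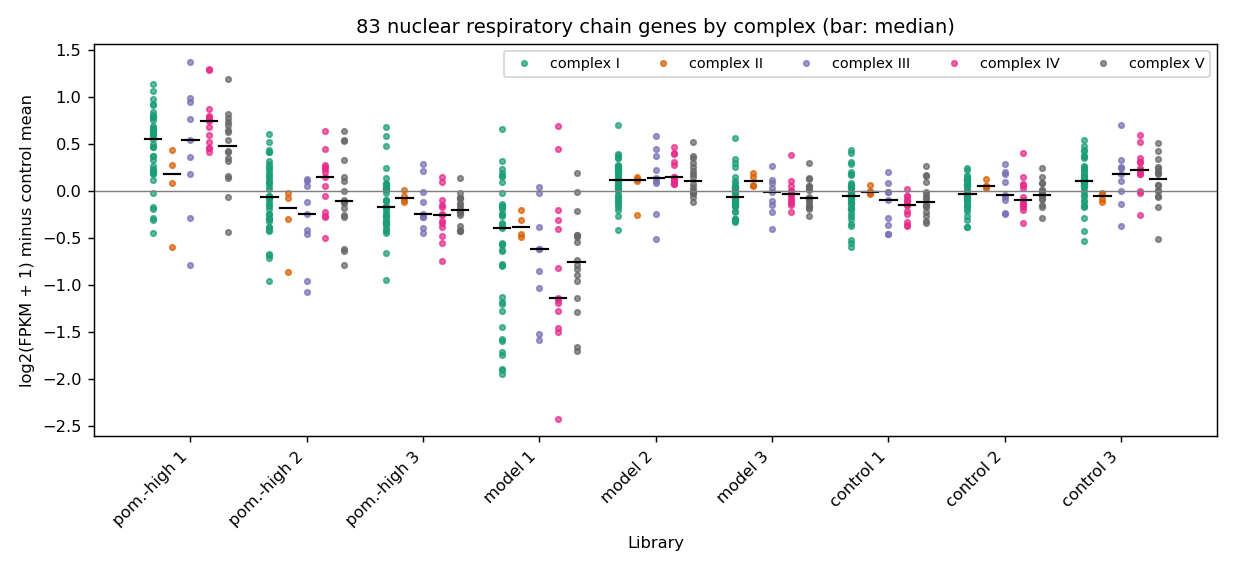
Each point is 1 of the 83 tested nuclear genes, given as log2(FPKM + 1) minus its mean in the 3 controls, in 9 libraries, coloured by complex, with bars at the median of each complex. Pomegranate-high replicate 1 sits mostly above 0 and model replicate 1 mostly below, with medians for complex IV of 0.75 and −1.15.

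Gene length moved with these deviations. The tested nuclear members had a median length of 785 bp, against 2232 bp for the 10450 protein-coding genes tested. In model replicate 1 the 30 members under 600 bp had a median deviation of −1.04, the 20 members of 600 to under 1000 bp one of −0.80, and the 33 members of 1000 bp or more one of −0.27. All 494 tested protein-coding genes under 600 bp had a median of −0.52 in that library, and the 9235 of 1000 bp or more had −0.16. In pomegranate-high replicate 1 the members' medians were 0.71, 0.54 and 0.33 from the shortest to the longest class, and those of all protein-coding genes were 0.53, 0.51 and −0.04. The members under 600 bp were near the short genes of like abundance in that library, since protein-coding genes under 600 bp with a mean of at least 20 FPKM had a median of 0.70. The same genes had −0.77 in model replicate 1. Pomegranate-high replicate 2 showed no such order among members, with −0.06, −0.08 and −0.05.

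After the median of protein-coding genes of like length was taken away in each library, a step chosen after the data were seen, the nuclear median was 0.12, −0.26 and −0.28 in pomegranate-high replicates 1 to 3 and −0.27, −0.05 and −0.01 in model replicates 1 to 3. The complexes then had −0.07, −0.09, −0.32, −0.65 and −0.31 from I to V in model replicate 1, with complex IV, at a median length of 495 bp, still the lowest. The step matched length in 10 classes and did not match abundance. Its shortest class had a median length of 624 bp and a median deviation of −0.52 in model replicate 1. Protein-coding genes under 600 bp with a mean of at least 20 FPKM had −0.77 in that library, so length and abundance may not be fully removed. In pomegranate-high replicate 1 the complexes had 0.07, −0.16, 0.03, 0.22 and 0.15, so complex II changed sign there. The mitochondrially encoded median was then 0.65, 1.03 and −0.37 in pomegranate-high and 2.01, 0.19 and 0.05 in model libraries. Whether RNA quality, library preparation or the livers differed was not tested.

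**Figure D5:**
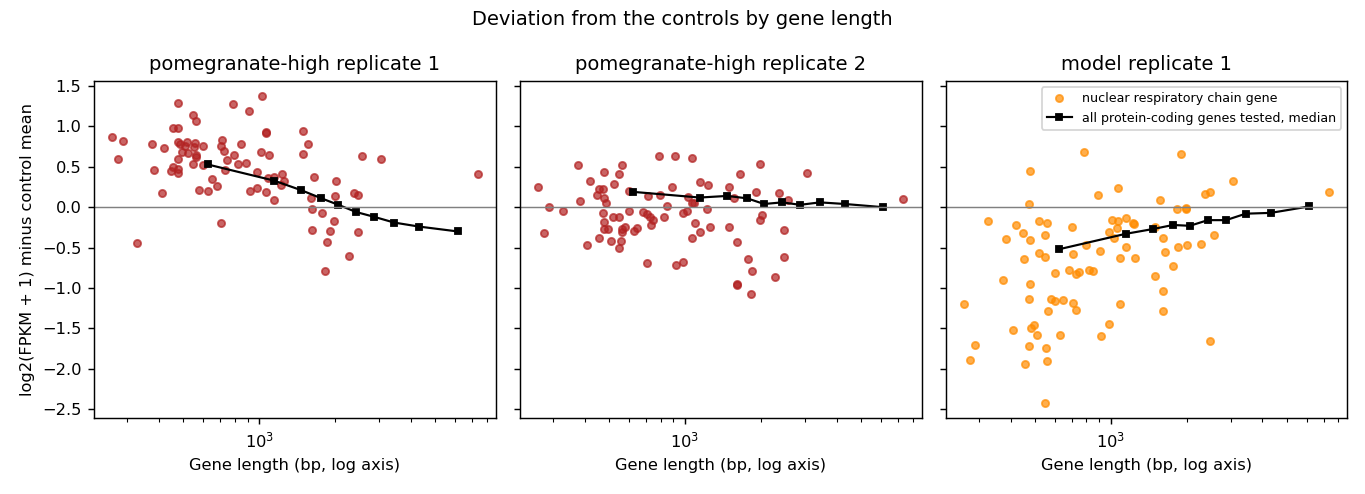
Points give log2(FPKM + 1) minus the control mean of the 83 tested nuclear genes against gene length (log axis) in pomegranate-high replicates 1 and 2 and model replicate 1, and black squares give the median of tested protein-coding genes in 10 classes of length. For the shortest class that median is 0.53 in pomegranate-high replicate 1, 0.19 in pomegranate-high replicate 2 and −0.52 in model replicate 1.

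The first comparison asks how livers of the model group differ from controls. None of the 96 tested members passed an adjusted p of 0.05 in limma, where 0.00903% of all genes did, and 0 passed with voom, limma's count method, applied to the recovered reads. The count at an unadjusted p under 0.05 was 0 higher and 0 lower among members, against 1.2% of all genes higher and 1.78% lower. On the log2(FPKM + 1) scale all 13 mitochondrially encoded members had differences at or above 0, from 0.00 for Mt-nd3 to 1.14 for Mt-nd6, with a median of 0.62. On the FPKM scale the means of Mt-nd3 (867 FPKM in model, 913 FPKM in control) and Mt-atp8 (3.92 FPKM in model, 4.69 FPKM in control) were lower in the model group. Of the 83 nuclear members, 66 were lower, with a median of −0.18, beside 5996 lower of all 11078 genes tested and a median of −0.03. Without model replicate 1 the mitochondrially encoded median was 0.18. The nuclear median was then 0.04, as was that of all genes tested, so the lower nuclear median turns on that library.

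Values nearest to a call were as follows. Mt-nd1 differed by 0.91 (SE 0.49, limma adjusted p = 0.999) and Mt-nd2 by 0.93 (SE 0.54, limma adjusted p = 0.999). Ndufa12, an accessory subunit, had 0.797, 3.07 and 4.09 FPKM in model and 3.78, 4.66 and 4.92 FPKM in control livers, and differed by −0.70 (SE 0.40, limma adjusted p = 0.999). Model replicate 1, on 10 reads, was the lowest library. Ndufb6, a subunit of the membrane arm, had 16.7, 43 and 51.3 FPKM in model and 45.3, 53.7 and 57.3 FPKM in control livers and differed by −0.62 (SE 0.37, limma adjusted p = 0.999). Ndufb10 had 62.4, 93.8 and 87.4 FPKM in model and 94.7, 104 and 127 FPKM in control livers and differed by −0.43 (SE 0.26, limma adjusted p = 0.999). It was the one tested member whose model libraries all lay below the controls, where 4.82% of all genes did.

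On the higher side, Ndufa4, once assigned to complex I and now to complex IV, had 114, 97.4 and 70.4 FPKM in model and 68, 74.1 and 69.3 FPKM in control livers, with a difference of 0.38 (SE 0.34). The assembly factors Ndufaf1 and Ndufaf2 differed by 0.31 each (SE 0.28 and 0.30). All 3 had a limma adjusted p of 0.999. Ndufaf7, a complex I assembly factor, was the one tested member without overlap on this side, with 2.59, 2.84 and 2.4 FPKM in model and 2.17, 2.06 and 2.4 FPKM in control livers. The nearest libraries met at about 2.4 FPKM. Its difference was 0.17 (SE 0.17), and 3.97% of all genes lay wholly above the controls.

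The second comparison asks how the pomegranate-high group differs from the model group. It shares the model libraries with the first. None of the 96 members passed in limma, where 0.00903% of all genes did, and 0 passed in voom. The count at an unadjusted p under 0.05 was 0 in either direction among members, against 7.12% of all genes higher and 1.57% lower. Of the 13 mitochondrially encoded members 8 were higher in pomegranate-high livers, with a median log2 difference of 0.03. This direction depends on the scaling and weighting, with 2 of 13 higher and a median of −0.26 after length-matched centring, 4 of 13 and −0.11 after median-of-ratios scaling, and 13 of 13 and 0.56 with library quality weights. Of the 83 nuclear members 69 were higher, with a median of 0.29, beside 6755 higher of all 11078 genes and a median of 0.09. Median-of-ratios scaling moved the median of all genes to −0.03 and the nuclear median to 0.16. The nuclear median was 0.01 without model replicate 1, 0.08 without pomegranate-high replicate 1 and −0.00 after length-matched centring.

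Mt-nd3 differed by 0.68 (SE 0.47, limma adjusted p = 0.69) and Mt-nd4l by −0.74 (SE 0.60, limma adjusted p = 0.73). Ndufc2, a subunit of the membrane arm, had 128, 87.3 and 63.8 FPKM in pomegranate-high and 53, 70.8 and 57 FPKM in model livers, and differed by 0.57 (SE 0.28, limma adjusted p = 0.596). The groups overlapped by 1 library each. Ndufaf3 had 13.1, 13.5 and 9.17 FPKM in pomegranate-high and 6.43, 10.4 and 8.75 FPKM in model livers and differed by 0.44 (SE 0.24, limma adjusted p = 0.618). Ndufaf4, an assembly factor that works with Ndufaf3, had 5.84, 5.07 and 5.73 FPKM in pomegranate-high and 4.62, 4.14 and 2.65 FPKM in model livers. It differed by 0.47 (SE 0.25, limma adjusted p = 0.619) and was the one tested member lying wholly above the model libraries, where 8.78% of all genes did.

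Uqcrc2, a core protein of complex III, had 25.2, 20.5 and 36.2 FPKM in pomegranate-high and 43.5, 30.6 and 39.8 FPKM in model livers, with a difference of −0.48 (SE 0.26, limma adjusted p = 0.618). Sdha, the flavoprotein that oxidises succinate, had 79.5, 66.1 and 122 FPKM in pomegranate-high and 87.8, 101 and 138 FPKM in model livers, with a difference of −0.31 (SE 0.28, limma adjusted p = 0.764). Atp5a1, the alpha subunit of the synthase, had 238, 186 and 317 FPKM in pomegranate-high and 229, 297 and 352 FPKM in model livers, with a difference of −0.25 (SE 0.27, limma adjusted p = 0.8). All 3 overlapped. Ndufa10, an accessory subunit, was the one tested member wholly below the model libraries, at 40.4, 40.8 and 35.9 FPKM in pomegranate-high and 44.9, 45.6 and 41.3 FPKM in model livers. Its difference was −0.17 (SE 0.21), and 2.05% of all genes lay wholly below.

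The third comparison sets the pomegranate-high group against controls and shares libraries with both others. None of the 96 members passed in limma, where 0.0181% of all genes did, and 0 passed in voom. At an unadjusted p under 0.05 the members' count was 0 higher and 1 lower, against 7.24% of all genes higher and 2.92% lower. The member was Uqcrc2, at 25.2, 20.5 and 36.2 FPKM in pomegranate-high and 51.1, 42.1 and 40 FPKM in control livers. It was lower in all 3 pomegranate-high libraries than in any control, by −0.71 on the log2 scale (SE 0.26, limma adjusted p = 0.425). Over the alternative settings its difference ran from −0.93 to −0.53 and its adjusted p from 0.0907 to 0.91.

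Uqcrc1, the partner core protein of Uqcrc2, had 107, 66.6 and 98.8 FPKM in pomegranate-high and 107, 127 and 164 FPKM in control livers, with a difference of −0.55 (SE 0.31, limma adjusted p = 0.556). Its groups met at about 107 FPKM. Sdha had 79.5, 66.1 and 122 FPKM in pomegranate-high and 118, 132 and 114 FPKM in control livers and differed by −0.49 (SE 0.28, limma adjusted p = 0.561), with pomegranate-high replicate 3 inside the control range. Uqcrc1 and Uqcrc2 were the 2 tested members wholly below the controls, where 3.66% of all genes were.

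Among members with higher means, Ndufaf4 had 5.84, 5.07 and 5.73 FPKM in pomegranate-high and 4.96, 2.44 and 3.46 FPKM in control livers and differed by 0.54 (SE 0.25, limma adjusted p = 0.508). Ndufaf2 had 9.48, 7.41 and 5.54 FPKM in pomegranate-high and 5.81, 5.43 and 2.82 FPKM in control livers and differed by 0.59 (SE 0.30, limma adjusted p = 0.525). Ndufc2 had 128, 87.3 and 63.8 FPKM in pomegranate-high and 70, 58.8 and 54 FPKM in control livers and differed by 0.55 (SE 0.28, limma adjusted p = 0.526). Mt-nd1 and Mt-co2 each differed by 0.86 (SE 0.49 and 0.50, limma adjusted p = 0.557 and 0.565). The 3 tested members wholly above the controls were Ndufaf4, the accessory subunit Ndufa5 and the Uqcrb row on chromosome 7, where 12.4% of all genes were. Ndufa5 had 114, 68.7 and 56.5 FPKM in pomegranate-high and 54.4, 53.9 and 45.8 FPKM in control livers.

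By class, 12 of 13 mitochondrially encoded members were higher in pomegranate-high than in control livers, with a median of 0.68, which was 0.43 without pomegranate-high replicate 2 and 1.08 without pomegranate-high replicate 3. Of the nuclear members 59 of 83 were higher, with a median of 0.11, beside a median of 0.07 over all genes. The nuclear median was −0.12 without pomegranate-high replicate 1, −0.03 after rescaling to TPM, where that of all genes was −0.04, and −0.14 after length-matched centring, so its sign depends on these choices. All 7 assembly factors named Ndufaf were higher in pomegranate-high livers, with differences of 0.13 to 0.59, beside 6363 of all 11078 genes. Of 37 tested assembly factors outside the members, 25 were higher and 12 lower. Of the 7 core subunits of complex I, 5 were lower, with a range of −0.39 to 0.18. None of these genes passed the test.

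Genes that work beside the chain gave no call either. Of 37 tested assembly factors outside the 104 members, 16 electron carriers and partners, 25 genes of mitochondrial DNA expression, 75 mitochondrial ribosomal proteins and 7 regulators of nuclear mitochondrial genes, 0 passed in any of the 3 comparisons in limma or in voom. At an unadjusted p under 0.05 these lists held 1 gene in model against control, 5 in pomegranate-high against model and 6 in pomegranate-high against control. Over all genes the shares were 1.2%, 7.12% and 7.24% higher and 1.78%, 1.57% and 2.92% lower in these comparisons. Mitochondrial ribosomal proteins were higher in pomegranate-high than in model livers for 70 of 75, with a median of 0.28, beside 6755 of all 11078 genes and a median of 0.09. They were higher than in control livers for 63 of 75, with a median of 0.23, beside 6363 of all 11078 genes and a median of 0.07. Model replicate 1 was the lowest library for most of them, such as Mrps23 and Mrpl54, and not for others, such as Mrpl32. The nuclear members' median against model livers was 0.01 without that library. How far the ribosomal protein medians turn on it, or on gene length, is not given here. Cycs, cytochrome c, which carries electrons between complexes III and IV, had 44.8, 47.6 and 31.9 FPKM in pomegranate-high, 46, 35.4 and 28.7 FPKM in model and 27.4, 17.6 and 22.9 FPKM in control livers. All 6 pomegranate-high and model libraries lay above the 3 controls, with differences of 0.84 in pomegranate-high and 0.67 in model livers (SE 0.27 each, limma adjusted p = 0.395 and 0.999). Of all genes 12.4% lay wholly above the controls in pomegranate-high and 3.97% in model livers. Cyc1, cytochrome c1 of complex III, had 134, 86 and 119.9 FPKM in pomegranate-high, 54.1, 126 and 129.7 FPKM in model and 115, 129 and 152 FPKM in control livers.

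Polrmt, the mitochondrial RNA polymerase, had 8.53, 8.33 and 14.1 FPKM in pomegranate-high, 6.31, 11.5 and 14.4 FPKM in model and 13.1, 16.8 and 14.3 FPKM in control livers. Its 3 lowest libraries were pomegranate-high replicates 1 and 2 and model replicate 1, the ones highest in mitochondrially encoded transcripts. Tfam, which packages mitochondrial DNA and starts its transcription, ranged less than Polrmt. It had 24.7, 21.2 and 24.5 FPKM in pomegranate-high, 18.1, 23.9 and 18.5 FPKM in model and 22.1, 21.3 and 21.6 FPKM in control livers. Esrra, a nuclear receptor that activates nuclear mitochondrial genes, had 16.9, 12.3 and 20.8 FPKM in pomegranate-high, 3.93, 19.8 and 22.3 FPKM in model and 16.5, 19.4 and 28.6 FPKM in control livers. Its lowest library was model replicate 1, also the lowest for most nuclear members. In that library 47.7% of all genes tested lay below all 3 controls. Gabpa, another of the listed regulators, had its highest value there, at 3.98 FPKM. Cycs, Cyc1, Polrmt, Tfb2m, Ssbp1, Tfam, Esrra, Gabpa and the ribosomal protein genes above were named after their values were seen.

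Sums of markers of other liver cells also differed between the groups, in several cases with overlap. Of the listed markers only Hba-a3, a red blood cell marker, passed in limma, and 0 passed in voom. Hba-a3 was 2.23 higher on the log2 scale in pomegranate-high than in model libraries (SE 0.25, limma adjusted p = 0.0386). In that comparison 0.00903% of all genes passed. Red blood cell markers summed to 1493 to 2923 FPKM in pomegranate-high, 475 to 1257 FPKM in model and 1260.1 to 1898 FPKM in control libraries, with 0 of 6 at 0 in all libraries. Sinusoidal endothelial markers summed to 51.8 to 91.5 FPKM in pomegranate-high, 43.1 to 72.3 FPKM in model and 98 to 106 FPKM in control libraries, over 6 genes. Macrophage markers, also 6, summed to 171 to 458 FPKM in pomegranate-high, 74.1 to 194 FPKM in model and 196 to 365 FPKM in control libraries. The 5 stellate cell and matrix markers summed to 37.8 to 95.4 FPKM in pomegranate-high, 23.5 to 44.9 FPKM in model and 24.2 to 35.5 FPKM in control libraries. Col3a1 made up most of the pomegranate-high sums, at 51.4, 61.5 and 27.9 FPKM. These markers did not move together: against control, 2 were higher and 3 lower in model, and 4 higher and 1 lower in pomegranate-high. The 4 bile duct markers summed to at most 17.8 FPKM and the 4 lymphocyte markers to at most 12.6 FPKM, both in pomegranate-high replicate 2, and the adipocyte markers to at most 0.0222 FPKM. The part of these cells in the values of the chain was not tested.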

How the data were processed

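The authors deposited 1 table of FPKM values with 20236 genes and 9 library columns, and it is the only measurement used. Per the labels' protocols, poly(A) RNA was caught on oligo(dT) beads, broken up and reverse transcribed from random primers, with a buffer that marks the second strand. The submitters' processing notes name build Rnor_6.0, HTSeq 0.6.0, Bowtie2 2.2.3, TopHat2, HISAT2, DESeq and DESeq2, without saying what each did. How FPKM was computed, and any use of strand in counting, are not given in the sources used here. As FPKM is relative to the library total, abundant mitochondrial transcripts lower all others.

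Each gene's values were multiples of what 1 read is worth. With library totals and gene lengths inferred from these steps, 100% of 146433 values above 0 came out whole within 0.001 reads, and the reads came to at least 99.987% of each implied total. Any 2 libraries differed in at least 84.7% of values. Samples were grouped by the labels' group field, and replicates were numbered in accession order.

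The 11078 genes that reached 1 FPKM in 3 or more libraries were modelled in limma 3.58.1 (R 4.3.3) on log2(FPKM + 1), which understates fold changes of low genes. The single fit held all 9 libraries and an intensity trend, and two-sided p-values were adjusted by Benjamini-Hochberg over all 11078 genes, with a threshold of 0.05. The fit was checked on simulated data. Since the unit is FPKM, voom on recovered reads was only an alternative. Members and lists were chosen with earlier results of these data known. Levels were named for all mitochondrially encoded members, the highest and lowest nuclear member by mean per complex, complex IV isoform genes and c-ring genes. Tests were named for the 3 nuclear members per direction and the 2 mitochondrially encoded members with the smallest p per comparison, and members without overlap and other exceptions were named after their values were seen. Current symbols came from the RefSeq table of assembly GRCr8, where 85 of 104 members matched by symbol or synonym. Sequences were not analysed here.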

Additional observations from a re-analysis of the deposited data

How the results depend on the processing

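No paired analysis was possible because the replicate numbers follow accession order and pair nothing. Across 19 other fits (pseudocount 0.1, no filter, mean FPKM of at least 5, TPM, scaling without mitochondrially encoded genes, median-of-ratios scaling, quality weights, each comparison alone, voom, each library left out, and length-matched centring, chosen after the data were seen), 0 members were called. The smallest adjusted p of a member was 0.0907, for Uqcrc2 in pomegranate-high minus normal control without pomegranate-high replicate 3. Of 453 alternative values of the 24 named tests, 1 changed sign: Mt-nd4l in pomegranate-high minus model was 0.01 with library quality weights (adjusted p = 0.996); the cause was not tested. Leaving out 1 library moved the model minus control median from 0.18 to 0.95 for mitochondrially encoded and from −0.32 to 0.04 for nuclear members. The pomegranate-high minus model medians ran from −0.38 to 0.45 and from 0.01 to 0.47, and the pomegranate-high minus control medians from 0.43 to 1.08 and from −0.12 to 0.23. With quality weights the mitochondrially encoded median of pomegranate-high minus model was 0.56 in place of 0.03. With the median member of each class in place of the sum, the ratio was 68.6, 142 and 53.4 in pomegranate-high, 237, 66.5 and 62 in model and 84.5, 47 and 40 in control libraries, a change of measure by construction, with model replicate 1 again highest. Under 30 reads per library, Mt-atp8 and most of the members below the minimum level allow no statement on a change.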
